A study of Saccharomyces cerevisiae with 12 samples.

Results

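The comparison described here sets budding yeast (Saccharomyces cerevisiae) grown for 25 generations in low shear modeled microgravity (LSMMG) against control cultures of the same age. Its members were chosen by sample title alone: 3 arrays of LSMMG cultures (SMG 25) and 3 arrays of control cultures (Ctrl 25), 6 of the 12 arrays in the series. All cultures were of the diploid laboratory strain BY4743, grown in rich YPD broth in rotating high aspect ratio vessels (HARVs) and held in log phase by serial dilution. The vessels of SMG 25 were mounted vertically, so that the axis of rotation was horizontal and cells fell through the fluid with little shear. Those of Ctrl 25 differed only in their horizontal position. The other 6 arrays, 3 of LSMMG (SMG 5) and 3 of control cultures (Ctrl 5) after 5 generations, serve only for comparison. The titles name 25 generations for these 6 arrays while the growth label of every array in the series names 5, and the titles were followed. The labels do not say whether replicates came from separate cultures, so that the p-values measure the spread between arrays, which may be technical.

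RNA was hybridized to Affymetrix Yeast Genome 2.0 arrays. The deposited values are ratios, each array having a median of 1 and each probe set being scaled to its own median over all 12 arrays. A ratio therefore compares arrays for 1 gene and says nothing of how abundant its transcript is. Of 10928 probe sets, 9015 that are not assigned to fission yeast or to array controls were tested with limma, and 5449 genes were each followed by 1 probe set. A gene was called higher or lower in SMG 25 at an adjusted p under 0.05, and changed when it also differed by at least 2-fold.

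As background, yeast cells in rich medium devote much of their transcription to building ribosomes. When nutrients run short or stress signals arrive, the nutrient kinases TORC1 and PKA lose activity, ribosome assembly genes are shut down together and the stress activators Msn2 and Msn4 switch on protective and storage genes. Glucose also represses the genes of respiration, of the glyoxylate cycle and of fatty acid oxidation. Daughter cells cut themselves free of their mothers with wall-degrading enzymes, and a family of cortical landmarks tells the next bud where to form.

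The 3 Ctrl 25 arrays stood apart from the other 9 in the median signal of their 18S and 25S rRNA controls. The 8 probe sets for 18S rRNA had a median ratio of 96.5 on Ctrl 25 replicate 1, 95.8 on replicate 2 and 3.75 on replicate 3, against 0.989 to 1.27 on the SMG 25 arrays. The 8 probe sets for 25S rRNA had medians of 127, 127 and 2.34 on the Ctrl 25 arrays and of 0.956 to 1.12 on the SMG 25 arrays. In the opposite direction, 12 probe sets for the poly-A labelling controls had medians of 0.344, 0.404 and 0.811 in Ctrl 25 and of 1.85, 1.05 and 1.25 in SMG 25. The signal of ribosomal RNA and of the labelling controls thus moved with the comparison, most on Ctrl 25 replicates 1 and 2. Log2 ratios of the tested probe sets spread more widely on the Ctrl 25 arrays (SD 0.543 to 0.705) than on the SMG 25 arrays (0.298 to 0.345). Ctrl 25 replicate 3 correlated at 0.887 and 0.873 with the other Ctrl 25 arrays and at 0.930 with Ctrl 5 replicate 3, a control array of the other age. The study's heat map also divides the control arrays between the ages otherwise than the titles do, so that the age of this array is less sure than that of the others. The differences at 25 generations were therefore also computed against Ctrl 25 replicate 3 alone and without it. With 1 control array the spread is that of the SMG 25 arrays alone, the tighter group, and only sizes of differences are given for that setting. The part of these control signals in the results was not tested.

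**Figure D1:**
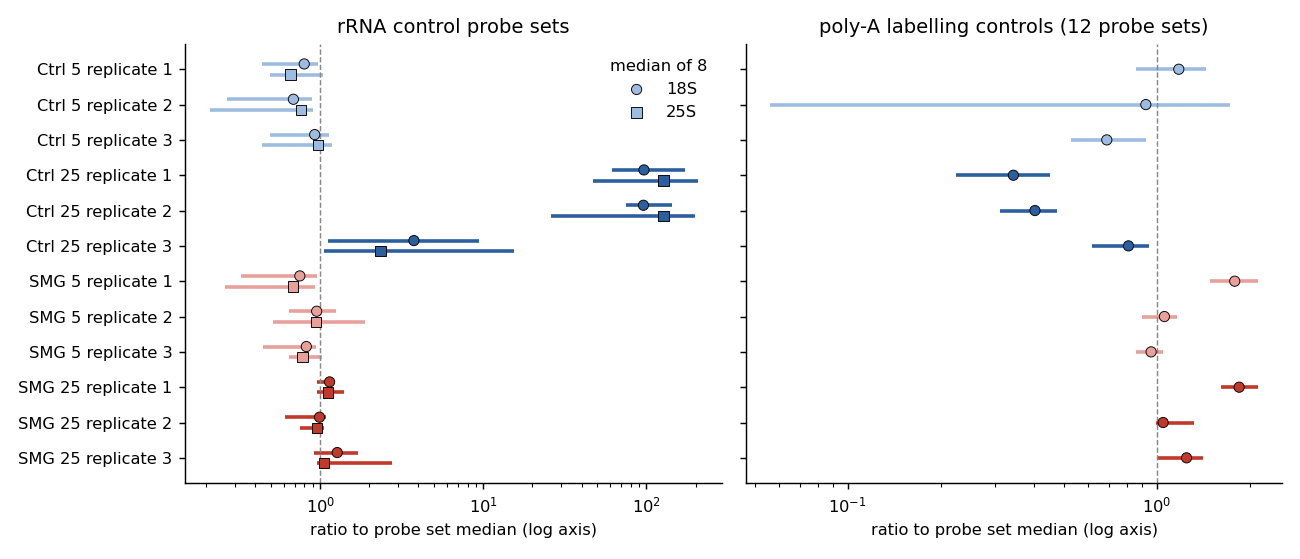
Ratios of the array controls on all 12 arrays (log axes). Left, median (circle for 18S, square for 25S rRNA) and range (line) of 8 probe sets each. Right, median and range of 12 probe sets of the poly-A labelling controls. Ctrl 25 replicates 1 and 2 have rRNA medians of 95.8 to 127 and the lowest poly-A medians, 0.344 and 0.404.

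At 25 generations 1004 genes were higher in SMG 25 by at least 2-fold, 18.4% of the genes tested, and 491 were lower, 9.01%. With no fold minimum 2378 genes (43.6%) were higher and 1481 (27.2%) lower. The median log2 difference was 0.20 over all genes, 1.47 over the genes that rose by at least 2-fold and -1.38 over those that fell as far. Differences reached at least 4-fold for 245 higher and 88 lower genes and at least 16-fold for 9 higher and 1 lower. On all 1495 changed genes every SMG 25 array lay beyond every Ctrl 25 array, as they did on 4291 genes (78.7%) in all. The SMG 25 arrays were closer to each other than the controls, with a median SD of log2 ratios of 0.0909 over genes against 0.157. Without Ctrl 25 replicate 3 all 1495 changed genes passed the test in the same direction, and with the 6 control arrays of both ages as 1 group 1286 did. The excess of higher over lower calls depended on the scaling: of probe sets changed by at least 2-fold, 68.3% were higher as deposited, 58.8% with arrays centred on named genes and 53% after quantile normalization, and the median difference over genes became 0.07 and 0.16.

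The largest rises were in genes of stationary phase, of spores and of unknown function. TMA10, whose product associates with ribosomes, had ratios of 2.1, 2.12 and 1.8 in SMG 25 and of 0.0353, 0.0581 and 0.0436 in Ctrl 25, a log2 difference of 5.49 ± 0.17 (SE, n = 3 and 3, limma adjusted p = 1.4e-06). SPS100, which encodes a protein of the spore wall, had 2.28, 2.88 and 3.53 against 0.0988, 0.194 and 0.0743 (log2 4.66 ± 0.32, adjusted p = 1.2e-05). Both genes were far above control on every LSMMG array. Arrays without overlap were a condition of this ranking, and 78.7% of all genes met it. HSP30, a plasma membrane heat shock protein that restrains the proton pump Pma1, had 2.14, 2.08 and 1.63 in SMG 25 and 0.136, 0.224 and 0.0386 in Ctrl 25 (log2 4.20 ± 0.54, adjusted p = 2.6e-04). Its control arrays were the least alike among these genes, and it did not pass the methods' t-test after adjustment. MPC3, the subunit of the mitochondrial pyruvate carrier made during respiratory growth, had 2.32, 2.31 and 1.84 against 0.122, 0.134 and 0.101 (log2 4.18 ± 0.14, adjusted p = 1.4e-06). RGI1, a gene of energy metabolism under respiratory conditions, had 2.02, 2.07 and 1.74 against 0.124, 0.11 and 0.103 (log2 4.11 ± 0.11, adjusted p = 1.4e-06). MPC3 and RGI1 were among the most even rises, their control arrays lying close together.

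The other 5 of the 10 largest rises were open reading frames of no named function. YLR031W rose by 4.40 on the log2 scale, YGR174W-A by 4.21 and YER053C-A by 3.95. YMR085W had ratios of 1.93, 2.07 and 2.59 in SMG 25 and of 0.153, 0.155 and 0.0898 in Ctrl 25, a log2 difference of 4.08 ± 0.22. Its neighbour on chromosome XIII, YMR084W, had 2.11, 2.05 and 2.21 against 0.111, 0.223 and 0.115, a log2 difference of 3.91 ± 0.24, so that the adjacent pair rose together. SPG4, named for survival in stationary phase, had a still larger fitted difference of 6.25 but was left out of the ranking because its ratio on Ctrl 25 replicate 3 was at the lowest value in the file, 0.01.

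The 10 largest falls were in genes of varied function. DBP2, a DEAD-box RNA helicase with roles in ribosome assembly and messenger decay, had ratios of 0.156, 0.147 and 0.218 in SMG 25 and of 3.81, 3.59 and 5.84 in Ctrl 25 (log2 -4.66 ± 0.21, adjusted p = 2.8e-06). It was the gene that fell by at least 16-fold. AAH1, the adenine deaminase of purine salvage, had 0.17, 0.203 and 0.152 against 2.1, 1.78 and 2.18 (log2 -3.53 ± 0.13, adjusted p = 1.6e-06). RNR1, the major large subunit of ribonucleotide reductase, had 0.235, 0.267 and 0.214 against 2.33, 1.89 and 2.25 (log2 -3.18 ± 0.12, adjusted p = 1.6e-06). On each of these genes the arrays within a group differed by far less than the groups did. TRM11, the catalytic subunit of a tRNA guanine methyltransferase, had 0.385, 0.397 and 0.27 against 3.05, 2.59 and 4.08 (log2 -3.20 ± 0.20, adjusted p = 7.5e-06). AQR1, a plasma membrane exporter of organic acids and amino acids, had 0.28, 0.295 and 0.224 against 2.5, 2.53 and 2.01 (log2 -3.14 ± 0.14, adjusted p = 2.5e-06). RPL18B, a ribosomal protein of the large subunit, fell by 3.28 on the log2 scale, but a second probe set for the gene gave -1.53, and its paralog is nearly identical in sequence. INA1, YGR079W and YOR338W, whose products have no well established function, had log2 differences of -3.48, -3.52 and -2.99.

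BSC1 completed the 10 largest falls with a different pattern. Its SMG 25 ratios of 0.92, 0.865 and 0.715 were near the median, while its Ctrl 25 ratios were 3.11, 6.79 and 24.8 (log2 -3.28 ± 0.62, adjusted p = 0.0022). The control arrays differed from each other by more than most genes differed between the groups. It did not pass the methods' t-test after adjustment.

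**Figure D2:**
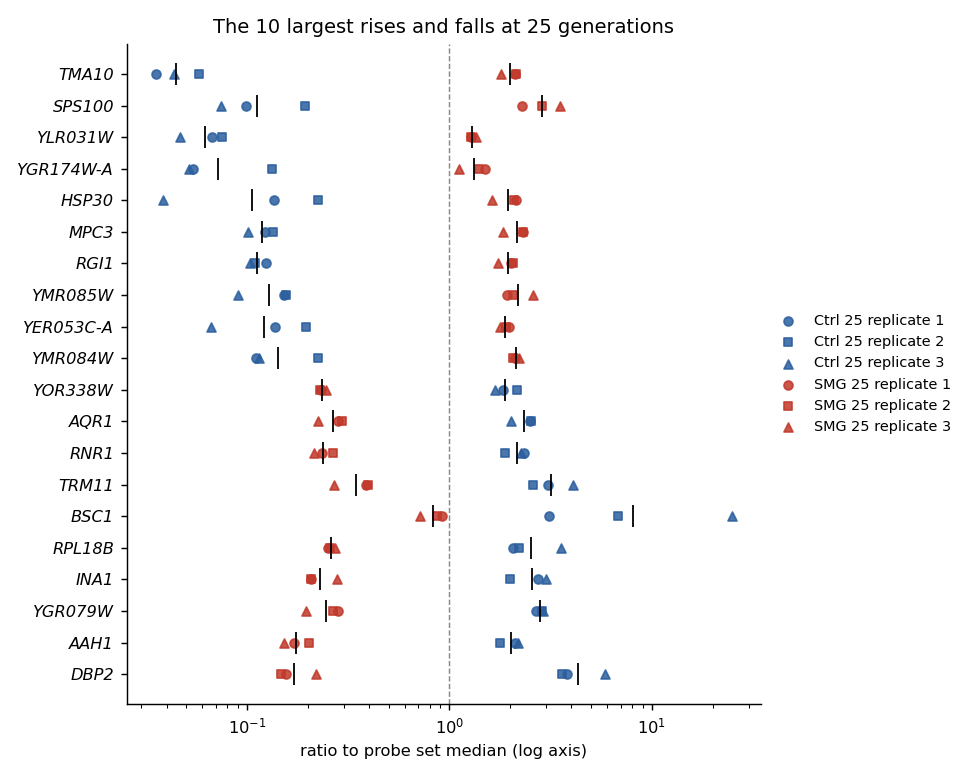
Ratio to the probe set's median (log axis) on the 6 arrays for the 10 genes that rose most, from TMA10 down to YMR084W, and the 10 that fell most, from YOR338W down to DBP2. Blue symbols are Ctrl 25, red symbols SMG 25, shapes are replicates and black ticks the mean of the log ratios. Groups that do not overlap were a condition of the ranking, and BSC1 has the widest control spread, from 3.11 to 24.8.

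Of 31 gene lists, the assembly factors of both ribosomal subunits, the genes of cell separation and those of tRNA modification had the lowest medians, and the lists for meiosis, stress, autophagy and haploid functions had the highest. The members of each list are counted below as higher or lower by adjusted p alone, to be read beside the 43.6% and 27.2% of all genes.

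**Figure D3:**
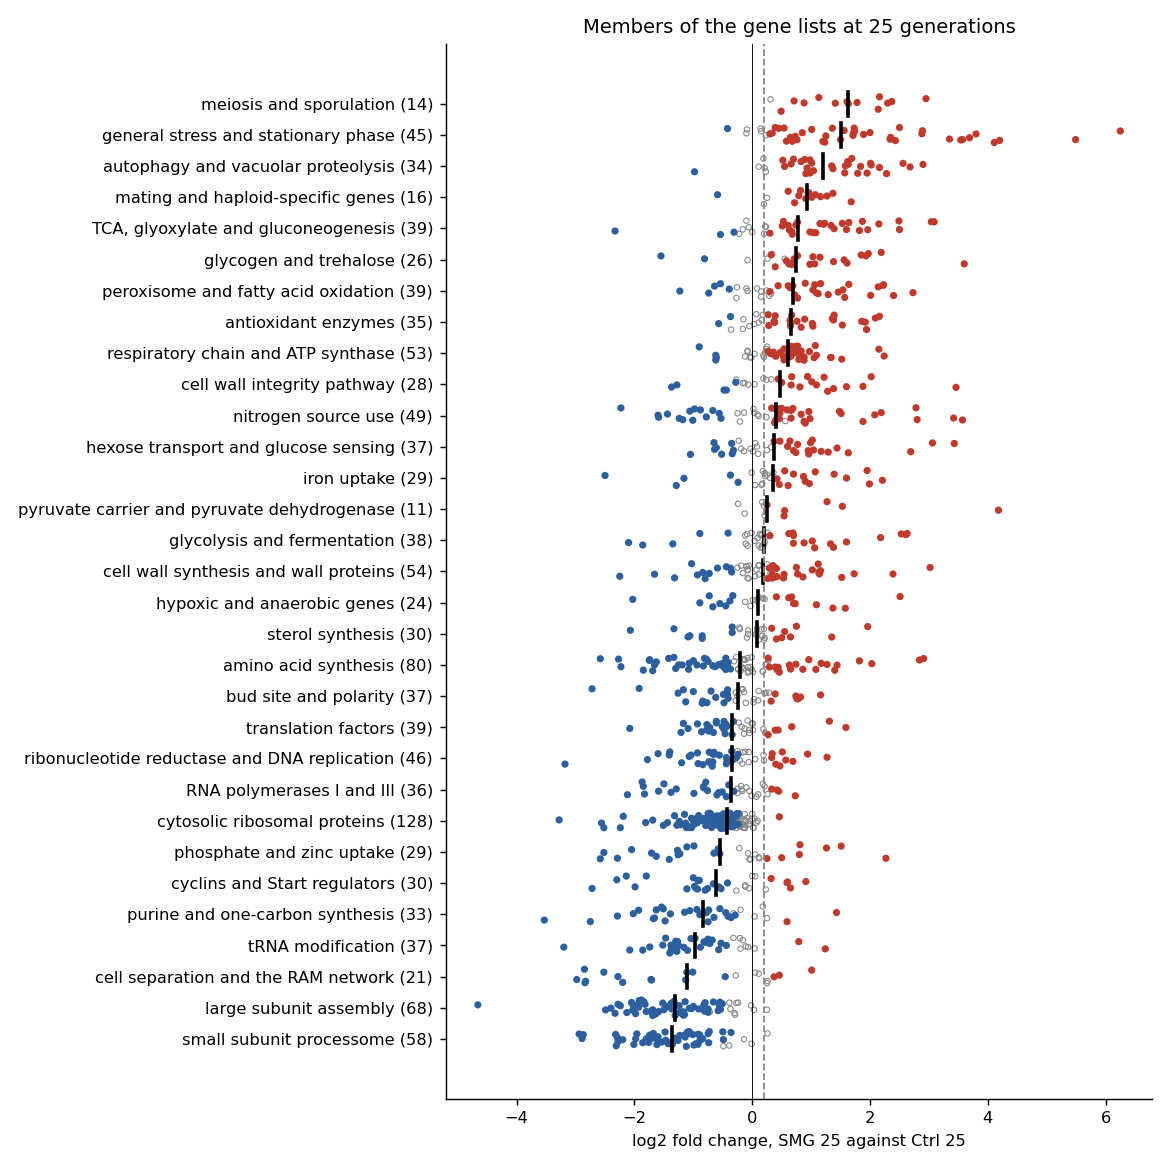
Log2 fold change of SMG 25 against Ctrl 25 for each member of 31 gene lists, with the number of members on the array in brackets. Filled points passed the test (red higher, blue lower), open points did not, thick black ticks are list medians and the dashed line is the median of all genes, 0.20. List medians run from -1.36 for the small subunit processome to 1.62 for meiosis and sporulation.

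Genes for building ribosomes were lower in SMG 25. Of 58 genes of the small subunit processome, the particle that folds and cuts the nascent 18S rRNA, 53 were lower and 0 higher, 40 of them by at least 2-fold, with a median of -1.36. MRD1, which helps to assemble that particle, had ratios of 0.307, 0.325 and 0.27 in SMG 25 against 2.32, 1.8 and 2.93 in Ctrl 25 (log2 -2.94 ± 0.17, adjusted p = 5.9e-06). NSR1, the yeast nucleolin, fell by 2.87, and the processome subunits UTP21 and UTP4 by 2.32 and 1.98. Of 68 genes of large subunit assembly 59 were lower and 0 higher, 44 by at least 2-fold, with a median of -1.31. Besides DBP2 they included NOG2, a GTPase of late nuclear particles, with 0.394, 0.369 and 0.268 against 1.65, 1.62 and 2.14 (log2 -2.40 ± 0.17), the shuttling factor ALB1 (-2.49) and the export adaptor NMD3 (-2.13). Every SMG 25 array was below every control on these genes, which were picked for large test statistics. Against Ctrl 25 replicate 3 alone, the array of the lowest rRNA signal among the 3, the medians were -1.64 and -1.62. After quantile normalization the medians were -1.77 and -1.71.

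Of 36 genes for RNA polymerases I and III and their factors 19 were lower and 5 higher, with a median of -0.36. Polymerase I, which makes the large rRNA precursor, accounted for the 4 with the largest test statistics. RRN3, the factor that recruits the enzyme, had 0.868, 0.85 and 0.761 in SMG 25 against 3.4, 2.77 and 4.95 in Ctrl 25 (log2 -2.12 ± 0.19, adjusted p = 4.3e-05). RPA190, its largest subunit, fell by 1.85, the subunit RPA34 by 1.59 and the core factor component RRN11 by 1.87. Of 128 cytosolic ribosomal protein genes 91 were lower and 1 higher, but 20 fell by at least 2-fold and the median was -0.43. RPS9A had 0.305, 0.424 and 0.31 against 1.74, 2.13 and 2.03 (log2 -2.52 ± 0.15), RPL22A fell by 2.24 and RPL9A by 2.19. Most ribosomal proteins are encoded by near-identical pairs of genes, and probe sets for 1 gene did not always give the same value: RPS17B had -1.51 on one and -0.17 on the other, RPS18B -1.69 and -0.38.

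Most tRNA modification genes fell as well, 28 of 37 with 2 higher and a median of -0.97. The methyltransferase TRM5 had 0.566, 0.597 and 0.606 against 1.93, 1.8 and 2.19 (log2 -1.74 ± 0.10), and the dihydrouridine synthase DUS1 fell by 1.86. MOD5, which adds an isopentenyl group to tRNA, went the other way, with 1.1, 1.09 and 0.995 against 0.427, 0.475 and 0.448 (log2 1.24 ± 0.09, adjusted p = 1.7e-05). Of 39 translation factors 21 were lower and 6 higher, with a median of -0.34. The initiation helicase DED1 had 0.458, 0.566 and 0.526 against 1.88, 1.93 and 2.82 (log2 -2.08 ± 0.17), and PRT1, a subunit of initiation factor eIF3, fell by 1.17. The higher members named by the rule were alternative isoforms. HEF3, the second gene for elongation factor eEF3, had 1.41, 1.17 and 1.18 against 0.454, 0.558 and 0.506 (log2 1.31 ± 0.12), and ANB1, the hypoxic form of eIF5A, had 1.57, 1.59 and 1.74 against 0.594, 0.431 and 0.619 (log2 1.59 ± 0.14, adjusted p = 4.2e-05).

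In purine and one-carbon synthesis 26 of 33 genes were lower and 2 higher, with a median of -0.83. FCY2, the permease for purines and cytosine, had 0.336, 0.346 and 0.309 against 2.17, 2.17 and 2.3 (log2 -2.75 ± 0.09, adjusted p = 1.4e-06). GCV2, a subunit of glycine decarboxylase, fell by 2.02, and ADE17, an enzyme of the last steps to inosine monophosphate, by 1.93. PHO2, an activator shared by the purine and phosphate pathways, was the highest of the list at 1.43.

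Genes of DNA precursor supply and replication were lower in 26 of 46 cases and higher in 9, with a median of -0.34. POL1, the catalytic subunit of DNA polymerase alpha, had 0.75, 0.714 and 0.593 against 2.35, 2.33 and 2.34 (log2 -1.78 ± 0.11, adjusted p = 7.0e-06), and the helicase subunit MCM7 fell by 1.60. RNR3, the damage-inducible counterpart of RNR1, rose instead, with 1.25, 1.3 and 1.25 against 0.568, 0.518 and 0.487 (log2 1.27 ± 0.09, adjusted p = 1.6e-05). Of 30 cyclins and Start regulators 18 were lower and 5 higher, with a median of -0.61. The mitotic cyclin CLB1 had 0.564, 0.517 and 0.446 against 3.46, 3.19 and 3.4 (log2 -2.72 ± 0.11, adjusted p = 1.7e-06), and CLB2 had 0.755, 0.779 and 0.725 against 2.55, 3.5 and 4.09 (log2 -2.14 ± 0.16). TOS4 and NRM1, which act at the end of the G1 transcription program, fell by 1.99 and 1.80. In bulk RNA, fewer cells in a phase of the cycle and less transcript per cell cannot be told apart. With all 6 control arrays the higher members numbered 5 in place of 9 and 2 in place of 5 in these lists, and the lower members 27 and 17.

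Many cell separation genes were lower. Of 21 genes for separation and for the RAM network, a kinase pathway of polarized growth and cell separation, 13 were lower, 12 of them by at least 2-fold, and 3 were higher, with a median of -1.11. DSE4, a daughter-specific endoglucanase, had 0.375, 0.372 and 0.465 in SMG 25 and 3.11, 2.99 and 3.44 in Ctrl 25 (log2 -2.98 ± 0.12, adjusted p = 1.7e-06). EGT2, which acts in the degradation of the septum, had 0.51, 0.526 and 0.666 against 3.82, 3.6 and 4.78 (log2 -2.84 ± 0.15, adjusted p = 3.9e-06). The glucanase-like SCW11 had a log2 difference of -2.85 and the daughter-specific DSE1 one of -2.83. On each of these 4 genes, picked for large test statistics, the SMG 25 arrays were far below all controls. HYM1, a component of the RAM network itself, was the highest member at 1.01. The separation chitinase CTS1 had a difference of -0.28 that did not pass (adjusted p = 0.12).

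For bud site selection and polarity 16 of 37 genes were lower, 7 higher and 14 did not pass, with a median of -0.25. RAX1 and RAX2, which act in the bipolar budding pattern that diploid cells use, had the largest falls of the list. RAX1 had 0.818, 0.805 and 0.716 against 4.67, 4.27 and 6.79 (log2 -2.72 ± 0.17, adjusted p = 7.5e-06), and its partner RAX2 had 0.613, 0.539 and 0.472 against 2.33, 1.99 and 1.81 (log2 -1.92 ± 0.13, adjusted p = 1.2e-05). The bipolar landmark genes BUD9 and BUD8 had differences of -1.13 and -0.28, of which that of BUD8 did not pass (adjusted p = 0.066). GIC1, an effector of the polarity GTPase Cdc42, fell by 1.0, while RGA2, an activator of its GTP hydrolysis, rose by 1.16. No shared direction was visible among the Cdc42 regulators named here.

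The cell wall integrity pathway, in which the sensors of wall stress signal through Pkc1 to the MAP kinase Slt2, had 15 of 28 members higher and 5 lower, with a median of 0.47. SDP1, the stress-inducible phosphatase of Slt2, had 2.27, 2.03 and 1.99 in SMG 25 against 0.187, 0.273 and 0.136 in Ctrl 25 (log2 3.46 ± 0.22, adjusted p = 8.6e-06). PTP2, a tyrosine phosphatase that also acts on Slt2, had 1.23, 1.1 and 1.14 against 0.421, 0.437 and 0.299 (log2 1.60 ± 0.15), and PKH2, a kinase upstream of Pkc1, rose by 2.02. Of these genes, SDP1 and PTP2 oppose the kinase and PKH2 lies upstream of it. The phosphatase genes MSG5 (-0.28, lower) and PTP3 (-0.27, not passing) did not rise. SLT2 itself was higher at 0.94, as were RLM1 (1.01) and KDX1 (1.22). BCK2, which promotes Start, rose by 1.09. The sensor genes went both ways. WSC4, the lowest member at -1.37, and WSC2 (-1.28) were lower, while MTL1 (1.28) and SLG1 (0.81) were higher. MID2 (0.24) and WSC3 (-0.07) did not pass. Among 54 genes of wall synthesis and wall proteins 24 were higher and 12 lower, with a median of 0.18. CHS2, the chitin synthase of the primary septum, had 0.744, 0.805 and 0.743 against 2.33, 2.44 and 2.46 (log2 -1.66 ± 0.09, adjusted p = 4.4e-06), the mannoprotein CWP1 fell by 2.25 and GAS3 by 1.32, while TIR2 rose by 1.13 and PIR3, a wall protein with internal repeats, was highest at 3.02. The wall list had, against all 6 control arrays, 12 higher members in place of 24, and TIR2 no longer passed.

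Genes that glucose represses were higher in larger part. Of 39 genes of the TCA cycle, the glyoxylate cycle and gluconeogenesis 28 were higher, 18 of them by at least 2-fold, and 3 lower, with a median of 0.77. MLS1, malate synthase of the glyoxylate cycle, had 1.57, 1.5 and 1.08 against 0.164, 0.183 and 0.136 (log2 3.09 ± 0.17, adjusted p = 5.0e-06). SIP4, an activator of gluconeogenic genes, had 1.9, 1.63 and 1.55 against 0.237, 0.222 and 0.165 (log2 3.04 ± 0.15, adjusted p = 3.6e-06). Both were separated on every array, as were 78.7% of all genes. The citrate synthases CIT3, of mitochondria, and CIT2, of peroxisomes, rose by 2.50 and 1.82.

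Of 53 genes of the respiratory chain and ATP synthase 36 were higher and 4 lower, with a median of 0.61, yet 8 rose by at least 2-fold. CYB2, the lactate dehydrogenase that feeds cytochrome c, had 1.33, 1.33 and 1.07 against 0.359, 0.324 and 0.186 (log2 2.15 ± 0.23), and the cytochrome oxidase subunits COX13 and COX7 rose by 1.33 and 1.05. COX10, which acts in the synthesis of heme A for that enzyme, fell by 0.90. When all 6 control arrays were used, 17 members of this list were higher in place of 36. Of 11 genes for pyruvate entry into mitochondria and its oxidation 6 were higher and 0 lower. Beside MPC3, its constitutive partner MPC1 had 1.07, 1.09 and 1.11 against 0.711, 0.789 and 0.737 (log2 0.55 ± 0.09), and PKP1 and PTC6, the kinase and a phosphatase of pyruvate dehydrogenase, rose by 1.53 and 1.27, PTC6 not passing the methods' t-test.

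In hexose transport and glucose sensing 19 of 37 genes were higher and 8 lower, with a median of 0.37. The range ran from the low-affinity transporter HXT1 at -1.05 to HXT5, the transporter of slow growth, at 3.43. MTH1, which holds transporter genes off when glucose is low, had 2.2, 2.36 and 1.33 against 0.205, 0.296 and 0.196 (log2 3.06 ± 0.24, adjusted p = 2.0e-05). HXT10 and HXT9 rose by 1.44 and 1.02 and the repressor MIG3 by 1.17. Against all 6 control arrays 11 were higher and 1 lower, and HXT9, which has near-identical relatives, no longer passed. Of 38 genes of glycolysis and fermentation 15 were higher, 5 lower and 18 did not pass, with a median of 0.20, the same as that of all genes. PFK26, which makes the activator fructose 2,6-bisphosphate, had 1.67, 1.54 and 1.69 against 0.402, 0.452 and 0.255 (log2 2.18 ± 0.20). The aldehyde dehydrogenases ALD5 and ALD6 fell by 2.10 and 1.86, while ALD3, ALD2 and ALD4 rose by 2.61, 1.60 and 0.70. GPP1, a phosphatase of glycerol synthesis, fell by 1.35 and GPP2 rose by 0.69.

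Storage carbohydrate genes were higher in 20 of 26 cases and lower in 2, with a median of 0.74. IGD1, an inhibitor of the glycogen debranching enzyme, had 1.94, 2 and 1.65 against 0.197, 0.185 and 0.0994 (log2 3.60 ± 0.24, adjusted p = 1.0e-05). The glycogen initiator GLG1 had 1.39, 1.37 and 1.42 against 0.455, 0.348 and 0.283 (log2 1.97 ± 0.16), and PIG2 and PCL8, regulators of glycogen synthase, rose by 1.93 and 1.38. The arrays of the groups did not overlap on any of the 4, nor did they on 78.7% of all genes.

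Of 45 genes of the general stress response and stationary phase 39 were higher, 28 of them by at least 2-fold, and 1 was lower, with a median of 1.5. Beyond TMA10 and RGI1, the stress-inducible Hsp70 gene SSA3 had 1.12, 1.14 and 1.26 against 0.233, 0.212 and 0.179 (log2 2.50 ± 0.12, adjusted p = 2.9e-06), and FMP45, a membrane protein of the cell cortex, had 1.18, 1.37 and 1.26 against 0.274, 0.239 and 0.24 (log2 2.34 ± 0.10, adjusted p = 2.5e-06). The single lower member was MSN2, the gene of a stress activator, at -0.42. Against Ctrl 25 replicate 3 alone the median was 1.74. With all 6 control arrays 27 members of this list were higher in place of 39. Among 35 antioxidant genes 24 were higher and 2 lower, with a median of 0.65. The catalase CTT1 was highest at 2.16. The glutathione transferase GTT2 had 1.17, 1.34 and 1.14 against 0.228, 0.287 and 0.353 (log2 2.09 ± 0.16), and GPX1, TSA2 and GRX6, a glutathione peroxidase, a peroxiredoxin and a glutaredoxin, rose by 1.92, 1.86 and 1.38.

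Autophagy genes rose in breadth, with 29 of 34 higher, 19 by at least 2-fold, 1 lower and a median of 1.20. ATG39, the receptor that sends parts of the nuclear envelope to the vacuole, had 1.43, 1.42 and 1.16 against 0.166, 0.225 and 0.151 (log2 2.90 ± 0.16, adjusted p = 5.3e-06). ATG29, which acts in the initiation of autophagosomes, rose by 2.28. The conjugation enzyme ATG3 rose by 2.16 and ATG12, a ubiquitin-like protein, by 1.63. ATG2, which transfers lipid to the growing membrane, was the lower member at -0.98. Of 39 peroxisome and fatty acid oxidation genes 24 were higher and 5 lower, with a median of 0.69. FAA2, a peroxisomal acyl-CoA synthetase, had 1.23, 1.22 and 1.2 against 0.294, 0.317 and 0.293 (log2 2.01 ± 0.09, adjusted p = 2.2e-06). PXA2, a subunit of the transporter that brings fatty acids into the organelle, rose by 2.14, the oxidation enzyme FOX2 by 1.57 and the import factor PEX3 by 1.46.

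Sterol and hypoxic genes had no shared direction. Of 30 sterol genes 8 were higher and 8 lower, ATF2, which acetylates alcohols and sterols, falling by 2.07, ERG2 by 1.09 and ERG4 by 1.06 and the oxysterol-binding HES1 rising by 1.96. Of 24 hypoxic and anaerobic genes 9 were higher and 8 lower. PAU23 was counted as lower at -0.55, but a second probe set for it gave 2.01. HEM13, a heme synthesis enzyme induced without oxygen, had 1.6, 1.66 and 1.87 against 0.488, 0.597 and 0.633 (log2 1.58 ± 0.12, adjusted p = 2.0e-05). PAU24, a mannoprotein gene of a large and closely related family, rose by 2.51 and AAC1, a minor ADP/ATP carrier of mitochondria, by 1.09. OYE3, an old yellow enzyme, had a difference of 1.37 that no longer passed against all 6 control arrays.

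Among metals and phosphate the uptake genes that fell included both main transporters named. CTR1, the copper transporter, had 0.555, 0.533 and 0.38 against 2.65, 2.78 and 2.78 (log2 -2.50 ± 0.15, adjusted p = 5.9e-06), and PHO84, the high-affinity phosphate transporter, had 0.385, 0.406 and 0.306 against 1.76, 1.76 and 1.79 (log2 -2.29 ± 0.12, adjusted p = 4.1e-06). With PHO84 fell SPL2, a regulator of phosphate transport (-2.52), and VTC3, which takes part in making polyphosphate (-1.41). Of 29 phosphate and zinc genes 15 were lower and 7 higher, with a median of -0.55. The higher members included PHM8, the highest at 2.27, and the zinc genes ZPS1 (1.51), ZRT1 (1.26) and ZAP1 (0.80). The zinc genes IZH1 (-0.65) and ZRC1 (-0.55) were lower. In the iron list 14 of 29 were higher and 5 lower. TIS11 and CTH1, which destroy messengers of iron-using proteins, rose by 1.99 and 1.39, and HMX1, a heme oxygenase, by 2.21. FIT2, a wall protein that retains iron siderophores, and the siderophore transporter ARN2 rose by 1.95 and 1.60. Other uptake genes of the list did not rise: FTR1 and FRE1 fell by 1.29 and 1.16, and FET3 (-0.01) did not pass. The higher members were 9 in place of 14 against all 6 control arrays.

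Of 49 genes for the use of nitrogen sources 26 were higher and 14 lower. DAL80, a repressor that acts when good nitrogen sources are absent, had 1.2, 1.29 and 1.11 against 0.183, 0.195 and 0.149 (log2 2.78 ± 0.12, adjusted p = 2.5e-06). The allantoin pathway gene DAL3 had 1.19, 1.07 and 0.941 against 0.154, 0.188 and 0.121 (log2 2.80 ± 0.17), and ATO2, a putative exporter of ammonium, rose by 3.57. The amino acid permease TAT1 fell by 2.23. With all 6 control arrays the higher members numbered 10 in place of 26. Amino acid synthesis was lower in 35 of 80 genes and higher in 20. HIS1, the entry enzyme of histidine synthesis, had 0.452, 0.407 and 0.479 against 2.11, 2.03 and 2.31 (log2 -2.27 ± 0.10, adjusted p = 2.7e-06), and LEU9, HOM3 and ARG1, enzymes of leucine, threonine and arginine synthesis, fell by 2.58, 1.66 and 1.74. The higher members included SER3, the highest of the list at 2.91. Also higher were the methionine genes MET32 (2.84), MET28 (2.03) and MET2 (1.82), while MET8 was lower at -1.07.

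Genes that a vegetative diploid normally keeps silent had higher ratios in SMG 25 than in Ctrl 25. Of 14 genes of meiosis and sporulation 13 were higher, 10 of them by at least 2-fold, and 0 lower, with a median of 1.62. IME1, the master activator of meiosis, had 1.26, 1.16 and 1.11 in SMG 25 and 0.528, 0.525 and 0.554 in Ctrl 25 (log2 1.13 ± 0.09, adjusted p = 2.4e-05). IME2, the kinase it induces, had 1.17, 1.16 and 1.31 against 0.454, 0.371 and 0.353 (log2 1.63 ± 0.12, adjusted p = 1.6e-05). Further along the program, the synaptonemal complex gene ZIP1 had 1.65, 1.54 and 1.57 against 0.293, 0.473 and 0.336 (log2 2.14 ± 0.17) and the sporulation septin SPR3 had 2.38, 2.49 and 2.28 against 0.291, 0.349 and 0.288 (log2 2.95 ± 0.11, adjusted p = 1.5e-06). The early and late sporulation genes named here, picked for large test statistics, were above control on every array. Of 16 mating and haploid-specific genes 13 were higher and 1 lower, with a median of 0.93. MFA1, the gene of the a-factor pheromone, had 1.08, 1.14 and 0.984 against 0.354, 0.286 and 0.367 (log2 1.68 ± 0.12, adjusted p = 1.5e-05). The MAP kinase gene FUS3 had a difference of 1.16, FAR1, which arrests the cycle on pheromone, of 0.91, and AXL1, a protease of a-factor processing, of 0.82. RME1, a haploid repressor of meiosis, was the lower member at -0.59.

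Calls on these genes varied with the controls taken. Against all 6 control arrays 9 of the 14 meiosis genes and 3 of the 16 mating and haploid-specific genes were higher, and FUS3, FAR1 and AXL1 did not pass. FAR1 and AXL1 also did not pass when all 12 arrays shared 1 estimate of the spread. MFA1 and FUS3 had lower ratios in SMG 25 than in SMG 5, where MFA1 had 2.23, 2.96 and 2.36 and FUS3 1.37, 1.36 and 1.25. SPR3 and ZIP1 had higher ratios in SMG 25 than in SMG 5, where they had 1.35, 0.911 and 1.09 and 1.23, 1.29 and 1.29. Whether these transcripts lay above background is unknown. Against Ctrl 25 replicate 3 alone the median of the meiosis list was 1.78 and that of the mating list 0.95. At 5 generations, against the controls of that age, the mating list had a median of 0.12 and the meiosis list one of 0.64, but 0 of their members passed the test of a difference between the ages.

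The marker genes of the strain give a gauge of error, since BY4743 lacks URA3 and LEU2 on both homologs and carries a partial deletion of HIS3. URA3 had 0.908, 1.04 and 1.01 in SMG 25 against 0.986, 1.03 and 1.11 in Ctrl 25, and HIS3 had 0.962, 1.01 and 1.04 against 1.03, 0.945 and 1.15. Their groups overlapped and neither passed (adjusted p = 0.55 and 0.75). LEU2, although deleted, had 1, 0.905 and 0.864 against 1.97, 1.46 and 1.29, a log2 difference of -0.75 ± 0.16 that passed at an adjusted p of 0.0037. It did not pass against all 6 control arrays or in the methods' t-test, and it shows that a difference of this size can be called on a gene the cells do not have. LYS2, of which the strain has 1 intact copy, fell by 0.81, and MET17, also present in 1 copy, had a difference of -0.48 ± 0.19 (adjusted p = 0.059) that passed, at -0.65, without SMG 25 replicate 3.

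Most of the changed genes had the same sign after 5 generations, where SMG 5 was set against Ctrl 5 in a separate fit: 1466 of 1495, of which 855 also passed there. A test of the difference between the ages, with all 12 arrays in 1 model, passed for 14 genes, 0.257% of those tested, 7 with a more positive and 7 with a more negative difference at 25 generations, while 1054 had an unadjusted p under 0.05. ANB1 was level at 5 generations (-0.05) and 1.59 higher at 25, a change of 1.64 (adjusted p = 0.042). PRM1, a membrane protein of mating cell fusion, went from -0.13 to 1.36 and the zinc-regulated ZPS1 from 0.37 to 1.51. In each of these the SMG 25 arrays lay above all 3 other groups, and the Ctrl 25 arrays lay below the Ctrl 5 arrays. PRM1 had 0.568, 0.597 and 0.5 in Ctrl 25 against 1.15, 1.21 and 0.817 in Ctrl 5. For ANB1 the ratios were 0.594, 0.431 and 0.619 against 1.28, 1.08 and 0.744. The change between the ages thus held a difference between the controls as well.

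For other genes an early difference was smaller later. PRP43, an RNA helicase of splicing and ribosome assembly, differed by -1.75 at 5 and by -0.44 at 25 generations, and CSI2, which is involved in chitin synthesis, by -1.94 and -0.67. STP4, a zinc finger protein, went from 1.97 to 0.31, and PLN1, a lipid droplet protein, from 1.57 to 0.05. PFK27, the second gene for the activator of phosphofructokinase, changed sign from 0.33 to -0.89. VID24, which acts in the destruction of gluconeogenic enzymes, went from 0.96 to a difference of -0.21 that did not pass at 25 generations (adjusted p = 0.19). At 25 generations the small differences of PRP43 (-0.43 to -0.31) and STP4 (0.27 to 0.30) no longer passed without Ctrl 25 replicate 1 or 3 or SMG 25 replicate 1 or 2. AQR1 was lower at both ages, by -1.73 and -3.14. The number of genes found by this test rested on single arrays: 1680 probe sets passed without Ctrl 5 replicate 3, and 0 without SMG 5 replicate 2 or without SMG 25 replicate 1, in place of 15. Ctrl 5 replicate 3 is the control array that correlated more with the Ctrl 25 arrays than with the rest of Ctrl 5.

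**Figure D4:**
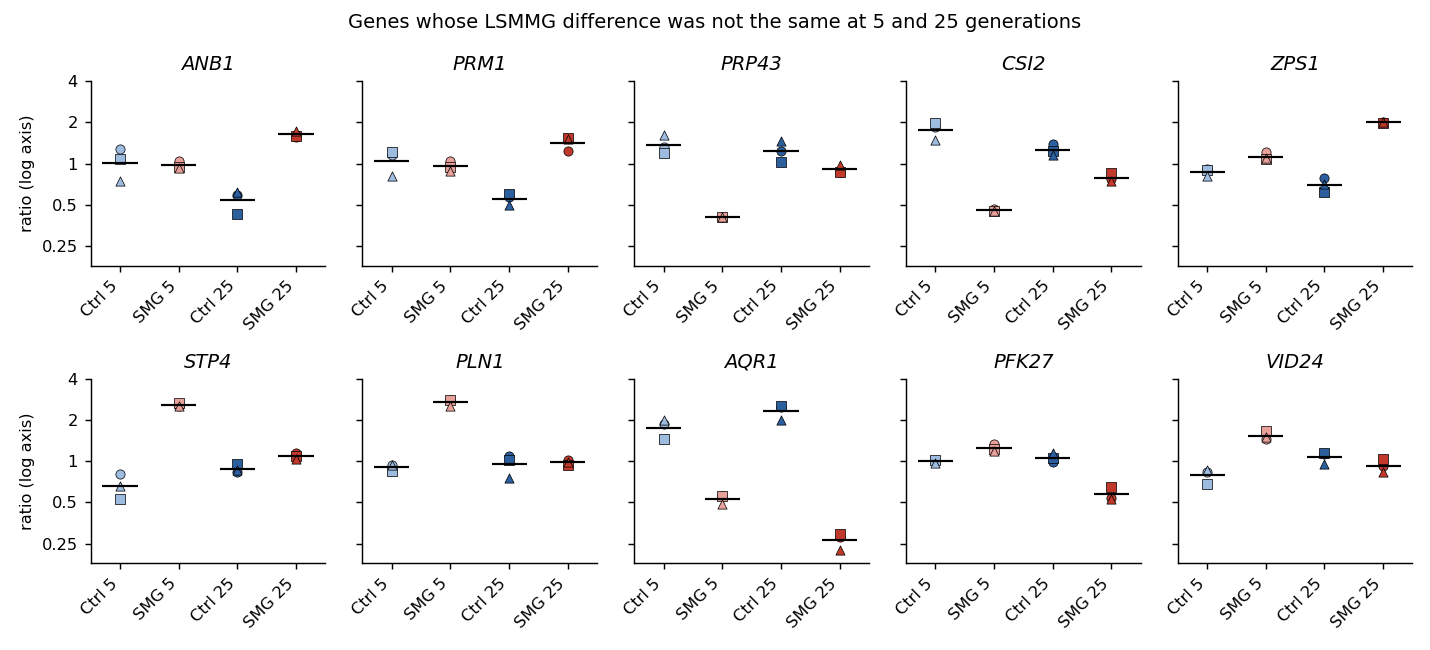
Ratio on each of the 12 arrays (log axis, shapes are replicates, bars the mean of the log ratios) for the 5 genes with the most positive and the 5 with the most negative change of the LSMMG difference from 5 to 25 generations, among the 14 genes that passed the test of that change. ANB1, PRM1 and ZPS1 are highest in SMG 25, STP4, PLN1 and VID24 in SMG 5, and AQR1 is lower in LSMMG at both ages, by -1.73 and -3.14 on the log2 scale.

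The choice of control arrays moved some genes more than others. With all 6 control arrays as 1 group 7 of the 148 genes named by the rule lost their call, FUS3 moving from 1.16 to 0.58 and OYE3 from 1.37 to 0.62. Against Ctrl 25 replicate 3 alone, without both arrays of the highest rRNA signal, the differences kept their sign, which is fixed where the groups do not overlap, with values for TMA10 (5.52), HSP30 (5.65), DBP2 (-5.09), RNR1 (-3.24), DSE4 (-3.10), RAX1 (-3.13), IGD1 (4.22) and SPR3 (3.05). HSP30 and BSC1 (-4.90) departed most among the 148.

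**Figure D5:**
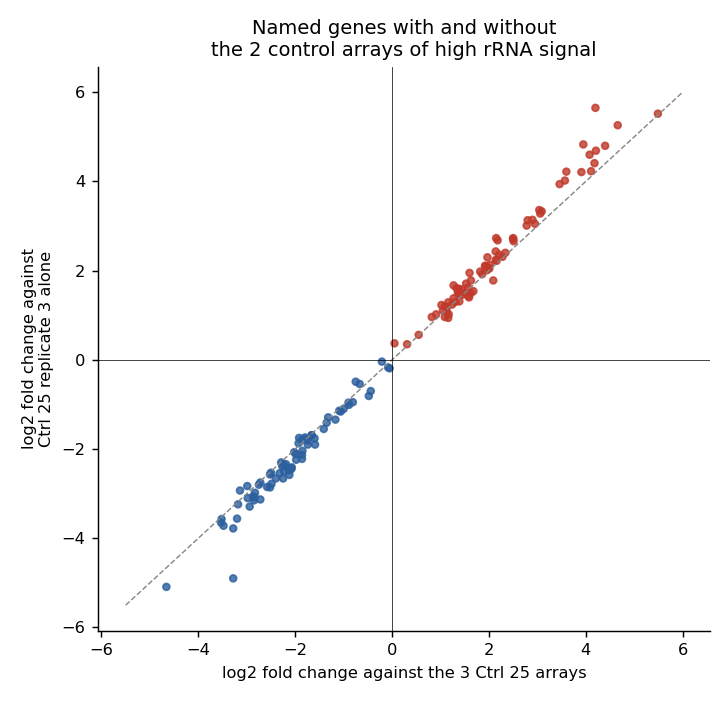
Log2 fold change of the 148 named genes against the 3 Ctrl 25 arrays (horizontal axis) and against Ctrl 25 replicate 3 alone (vertical axis), with the line of equal values dashed. Red genes were higher and blue genes lower in SMG 25 against the 3 arrays. The points lie along the line with no change of sign, HSP30 (4.20 and 5.65) and BSC1 (-3.28 and -4.90) farthest from it.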

How the data were processed

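Replicate arrays (3 a group) of LSMMG and control cultures at 25 generations were compared, with groups taken from the sample titles. The authors normalized the arrays by RMA and worked in GeneSpring. The deposited values are ratios, linear and never negative, from 0.01 to 205.8. The medians of arrays are 1 and those of probe sets 0.9935 to 1.0105. How this scaling was set is not given in the sources used here, and the intensities, and with them the signal over background, are unknown. The number of arrays limits the precision, and exact permutation of 3 against 3 cannot go below p = 0.1.

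Log2 of the ratios was used as it stands, and groups were compared with limma 3.58.1 in R 4.3.3 (lmFit, eBayes), with Benjamini-Hochberg adjustment over 9015 probe sets (5498 named, 3517 without a gene name). Not tested were 1746 probe sets for S. pombe, 166 array controls and 1 probe set of several genes. Of 47 genes with several probe sets, a set specific to the gene was preferred. The authors' comparison pooled the controls and left out 1 aberrant array that the methods do not identify. Here controls of the same age were used, and all arrays.

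Members and gene lists were chosen with earlier results of these data known. Named were the 10 largest rises and falls with separated arrays and no ratio at the lowest value, up to 4 members of each of 31 lists with the largest moderated statistics, the 5 largest differences between the ages each way among those that passed, and strain markers. HYM1, CTS1, BUD8, BUD9, FIT2, ARN2, PHO2, WSC4, PIR3, HXT1, HXT5, MSN2, CTT1, ATG2, RME1 and SPG4 do not follow from this rule and were added with their values known. The same holds for FTR1, FRE1, FET3, SER3, MET32, MET28, MET2, MET8, ALD2, ALD3, ALD4, GPP2, PHM8, ZRT1, ZAP1, ZRC1 and IZH1. It holds too for MSG5, PTP3, SLT2, RLM1, KDX1, WSC2, WSC3, MTL1, SLG1, MID2 and PAU23. Same-numbered LSMMG and control arrays deviated from their group means with correlations of 0.024, -0.072 and -0.123, so the numbers were not used as pairs. Alternatives were the methods' t-test, other fold minimums, controls, scalings, filters, priors and weights, an added 0.1, the replicate number as a block, single arrays left out and, chosen after seeing the data, both control arrays of high rRNA signal left out. The steps were tested on simulated data. Figures were drawn with matplotlib 3.10.9. Promoter sequences were not analysed here.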

Additional observations from a re-analysis of the deposited data

Results flagged for a closer look

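The results given here were picked out because the LSMMG difference itself changed between 5 and 25 generations, by the limma test of that change over all 12 arrays. The later difference was more positive for 5 named genes. ANB1 changed by 1.64 (SE 0.27), having ratios of 1.05, 0.938 and 0.934 in SMG 5 and 1.28, 1.08 and 0.744 in Ctrl 5. PRM1 changed by 1.49, PRP43 by 1.31, CSI2 by 1.28 and ZPS1 by 1.14 (SE 0.14). PRP43 and CSI2 were lower in LSMMG at both ages and less so at 25 generations.

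The later difference was more negative for 5 others. STP4 changed by -1.66 (SE 0.19), with ratios of 2.52, 2.67 and 2.51 in SMG 5 against 0.806, 0.528 and 0.662 in Ctrl 5. PLN1 changed by -1.52, with 2.79, 2.8 and 2.54 against 0.942, 0.847 and 0.943. AQR1 changed by -1.41, PFK27 by -1.22 and VID24 by -1.17. Adjusted p ran from 0.012 for STP4, PLN1 and PFK27 to 0.042 for ANB1, and the test called 0 probe sets when SMG 5 replicate 2 or SMG 25 replicate 1 was left out. The array controls differ between the ages as well as between the conditions, and their part in these changes was not tested.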

How the results depend on the processing

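Of the 1594 probe sets changed by at least 2-fold, counts stayed within 1.5 times under other tests, controls, filters, priors, weights and scalings, from 1183 (all 6 control arrays) to 1861 (without both control arrays of high rRNA signal, where the lone control array is assumed to vary like the SMG 25 arrays). Leaving out single arrays gave 1470 to 1694 in all, 1023 to 1142 higher and 447 to 552 lower. A minimum of 1.5-fold gave 2913 (1850 higher, 1063 lower) and no minimum 4489 (2564 and 1925). Against all 6 control arrays 724 were higher. The replicate number as a block gave 1595 changed probe sets, and of the named genes it lost STP4 and added MET17. The test between ages passed for 9 probe sets with the replicate block, 202 after quantile normalization and 0 to 1680 with single arrays left out, 1680 without Ctrl 5 replicate 3. Genes near 0 changed sign: PLN1 (0.05) had -0.11, without Ctrl 25 replicate 3, to 0.16 with single arrays left out, -0.00 after quantile normalization, -0.07 with arrays centred on named genes and -0.04 with array weights, HIS3 (-0.05) had 0.03 without Ctrl 25 replicate 3 and down to -0.11 without other arrays, and VID24 and URA3 had 0.01 and 0.02 against all 6 control arrays. The cause was not tested. Of the 148 named genes, 7 no longer passed against all 6 control arrays and 7 in the methods' t-test. The planned count of promoter motifs was not run. Without intensities, dim probe sets could not be told from bright ones.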

Other observations

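Probe sets without a gene name, which belong to none of the lists, moved little: 88 of 3517 (2.5%) changed by at least 2-fold, and their median log2 difference was -0.07 against 0.20 for named genes. These probe sets carry no species assignment here, so that they may include further probe sets for S. pombe. Tested alone, the named probe sets had 1506 of 5498 (27.4%) changed by at least 2-fold. The 1746 probe sets assigned to S. pombe, whose RNA was not in the cultures, had a median of -0.09 and a range of -1.15 to 0.40, with 1 at 2-fold or more.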
